A study of Homo sapiens with 6 samples.

Results

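The 10 genes described here are transcription factors that drive epithelial-mesenchymal transition (EMT), a partner of theirs and a protein of the mesenchymal state: *SNAI1*, *SNAI2*, *SNAI3*, *TWIST1*, *TWIST2*, *ZEB1*, *ZEB2*, *TCF3*, *PRRX1* and *VIM*. They were listed by name, with earlier results of these data known but with no measured value in the rule, and all 10 were found among the 39739 gene rows of the deposited tables. RNA-seq was performed on HGC27, an established human gastric cancer (GC) cell line, in 6 libraries. In 3 libraries the cells stably overexpressed the 3′-untranslated region (3′-UTR) of *FN1*, the fibronectin gene, after lentiviral infection and puromycin selection (HGC27-FN1 3′-UTR cells). The other 3 came from HGC27-control cells, for which the labels give only the name of the control. Resistant cells were collected as a whole, and the labels do not say whether the libraries of a group came from separate cultures, so p-values measure only the spread between these libraries. The comparison asks which of the EMT factors changed in level with *FN1* 3′-UTR overexpression.

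In EMT, epithelial cells loosen their junctions and take on a mesenchymal shape and motility. SNAI and ZEB proteins are zinc finger repressors that bind short E-box sequences in the promoters of epithelial genes such as *CDH1*, which encodes E-cadherin. TWIST proteins bind E-boxes as dimers with E proteins such as the product of *TCF3*, PRRX1 is a homeobox factor, and vimentin, encoded by *VIM*, is the intermediate filament protein by which mesenchymal cells are commonly recognised.

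Between 16357085 and 37037532 reads a library were assigned to genes, and 3 reads were taken as the least that counts as a signal. Levels are RPKM, reads normalised to the merged exon length of a gene and to the depth of the library, and fold changes (log2FC, FN1 3′-UTR minus control, with their standard errors, SE) come from limma on log2(RPKM + 0.1), a scale that understates the changes of low genes. *FN1* itself measured 0.777, 0.745 and 0.819 RPKM in the FN1 3′-UTR libraries and 0.543, 0.474 and 0.532 RPKM in the control libraries. Its log2FC was 0.52 (SE 0.11, limma adjusted p = 0.0292), and the adjusted p lay between 0.0625 and 0.1 when any 1 library was left out. The deposited row covers the whole gene and does not separate the overexpressed 3′-UTR. The 5 genes taken as epithelial markers (*EPCAM*, *CDH1*, *KRT8*, *KRT18*, *KRT19*) were all higher in HGC27-FN1 3′-UTR cells. Their summed level was 18.2 to 27.0 RPKM against 2.59 to 2.99 RPKM. *KRT19* was under the filter of 0.1 RPKM in every control library and was tested only because the other group was high. Epithelial genes outside these 5 moved both ways, as given below, and *DSP* fell. In the control cells of this carcinoma line *CDH1*, *KRT18* and *KRT19* averaged 0.126, 0.179 and 0.0747 RPKM. Of 6 fibroblast markers 4 were higher (summed level 178 to 180 RPKM against 122 to 140 RPKM). Most of that sum was *COL3A1* and *COL1A1*, with means of 111 and 44.5 RPKM against 82.1 and 30.5 RPKM. *DCN* did not pass (log2FC 0.29, limma adjusted p = 0.102). *PDGFRA* went the other way without passing, at 1.87 to 2.16 RPKM against 2.23 to 2.37 RPKM (log2FC -0.21, limma adjusted p = 0.117). Of the 4 blood markers found, *LYZ* alone was higher (3.60 to 4.81 RPKM against 0.147 to 0.254 RPKM), and 4 endothelial markers summed to at most 0.0222 RPKM, with *PECAM1* at 0 in all 6 libraries. Whether these markers had a part in the results on the EMT factors was not tested.

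Of the EMT genes 3 rose and none fell. *SNAI2* rose 1.83-fold, *TWIST1* 1.37-fold and *PRRX1* 1.23-fold in HGC27-FN1 3′-UTR cells, while the 95% intervals of the fold of *ZEB1*, *ZEB2*, *TCF3* and *VIM* lay between 0.900 and 1.10. Of the 9 genes that passed the filter on low values, 3 were higher and 0 lower at an adjusted p under 0.05, and no further gene had an unadjusted p under 0.05. The limma voom fit on the recovered reads called the same 3. Over all 23299 tested genes limma called 5.62% higher and 7.36% lower, and voom called 2042 genes higher and 3066 lower. Every FN1 3′-UTR library lay above every control library for the same 3 genes, against 14.3% of all tested genes, and none of the 9 lay wholly below, against 21.7%. At the criteria of the study, a log2FC beyond 1 in size with an unadjusted p below 0.05, none of the 9 passed in either fit, against 2.47% of all tested genes. Among all called genes 43.3% were higher, and this share was 56.0% after median-ratio scaling, under which the same 3 EMT genes were called. RNA of a culture cannot show whether more cells express a gene or each cell holds more of its RNA.

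**Figure D1:**
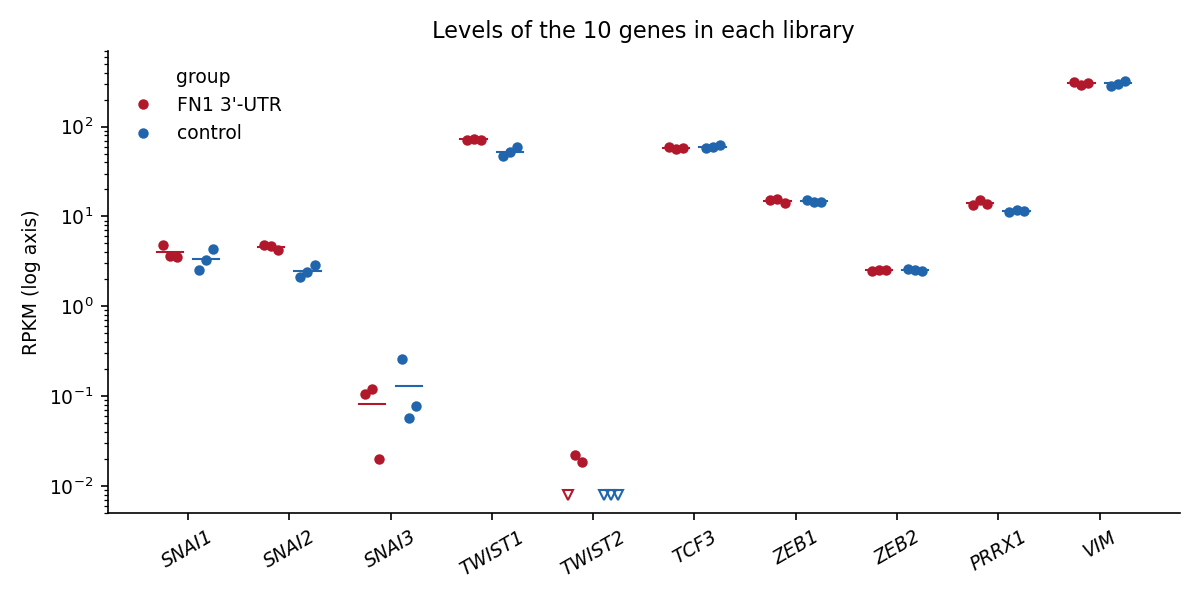
Level of each of the 10 genes in the 6 libraries, in RPKM on a log axis. Points are libraries, short lines are group means where all 3 libraries had reads, and open triangles at the bottom mark libraries with 0 reads. The levels span from 0 for *TWIST2* to 324 RPKM for *VIM*, and the groups are apart for *SNAI2*, *TWIST1* and *PRRX1*.

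*SNAI2*, on the reverse strand of chromosome 8, encodes SLUG, a repressor of *CDH1*. It measured 4.80, 4.63 and 4.25 RPKM in the FN1 3′-UTR libraries (179, 258 and 283 reads) and 2.12, 2.42 and 2.85 RPKM in the control libraries (108, 170 and 241 reads). The lowest FN1 3′-UTR library was thus above the highest control library. Its log2FC was 0.87 (SE 0.11, 95% interval 0.60 to 1.14, limma adjusted p = 0.00718), the largest of the 9 tested EMT genes. It was called in all 8 other settings and in all 6 fits with a library left out, where its log2FC ranged from 0.77 to 0.98. The spread between the FN1 3′-UTR libraries (coefficient of variation 6.17%) was close to the 6.58% that counting error alone gives, and in the control libraries it was 15.0% against 8.02%.

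*SNAI1*, on the forward strand of chromosome 20 from 49982999 to 49988886 (GRCh38), encodes SNAIL, the founding EMT factor of the family. Its levels were 4.75, 3.64 and 3.55 RPKM in HGC27-FN1 3′-UTR cells and 2.52, 3.29 and 4.29 RPKM in control cells. The groups overlapped, since 1 control library exceeded 2 of the FN1 3′-UTR libraries. The log2FC was 0.25 (SE 0.20, limma adjusted p = 0.466), and its interval from -0.24 to 0.75 includes folds of 0.849 to 1.68. Leaving out a library moved it between 0.07 and 0.44. *SNAI1* spread more than its counting error of 8.17% in the FN1 3′-UTR libraries (16.7%) and 8.19% in the control libraries (26.3%). Among control libraries, *SNAI1*, *SNAI2*, *TWIST1*, *TCF3* and *VIM* were all highest in the library with 37037532 reads and lowest in that with 22332816. *ZEB1* and *ZEB2* ran the other way there. In the FN1 3′-UTR group, *SNAI1*, *SNAI2*, *TCF3* and *VIM* were highest in the library with 16357085 reads. Whether depth had a part in these levels was not tested.

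Within a library, the ratio of *SNAI2* to *SNAI1* does not depend on the scaling of the library. It was 1.01, 1.27 and 1.19 in HGC27-FN1 3′-UTR cells and 0.84, 0.735 and 0.664 in control cells. Per merged exon length *SNAI2* was therefore level with or above *SNAI1* in the FN1 3′-UTR libraries and below it in every control library. The order within FN1 3′-UTR replicate 1 turns with the length of 1 transcript for each gene, at 4.51 for *SNAI2* and 4.75 for *SNAI1*. That *SNAI2* transcript, from GENCODE release 29, has 2428 bases against 2282 merged bases in the deposited row. The reads were counted over the shorter row, so this *SNAI2* value can be understated. The difference of the log2 ratio was 0.63 (exact permutation test, two-sided, p = 0.1, the smallest that 3 against 3 libraries allow, and 0.15 after adjustment over 3 ratios). The summed level of the 3 *SNAI* genes was 9.65, 8.39 and 7.82 RPKM against 4.90, 5.76 and 7.22 RPKM. *SNAI2* made up 49.7%, 55.2% and 54.3% of this sum against 43.2%, 41.9% and 39.5%.

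**Figure D2:**
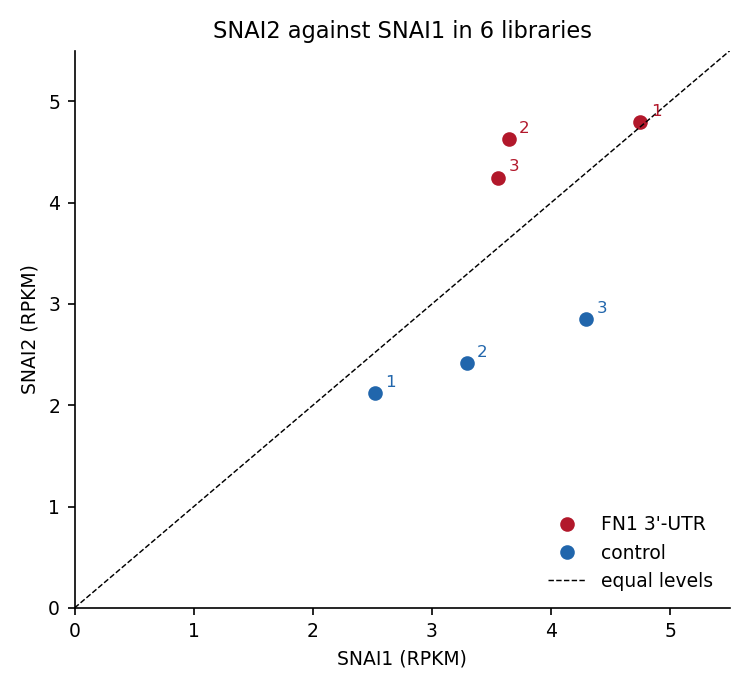
*SNAI2* level against *SNAI1* level in RPKM, 1 point for each of the 6 libraries, numbered by replicate. The dashed line marks equal levels: the 3 FN1 3′-UTR libraries lie above it, at ratios of 1.01 to 1.27, and the 3 control libraries below it, at 0.664 to 0.84.

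*SNAI3*, the least studied gene of the family, is encoded on chromosome 16, reverse strand, from 88677682 to 88686493. It had 3, 5 and 1 reads in the FN1 3′-UTR libraries and 10, 3 and 5 reads in the control libraries. These sum to 9 reads (exact Poisson 95% interval 4.12 to 17.1) and 18 reads (10.7 to 28.4), where the intervals cover counting error only. The log2FC of -0.30 had a SE of 0.42 (limma adjusted p = 0.699), and no difference was detectable at this depth. *SNAI3-AS1*, on the opposite strand, shares 163 exon bases with it and had 21 and 52 reads.

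*TWIST1*, a basic helix-loop-helix (bHLH) factor encoded on chromosome 7, reverse strand, from 19020991 to 19117672, was second by RPKM among the 10 genes in HGC27-FN1 3′-UTR cells. It measured 71.2, 73.7 and 71.8 RPKM there, from 2368, 3661 and 4260 reads, and 47.4, 51.9 and 59.1 RPKM in control cells, from 2152, 3249 and 4448 reads. The groups did not overlap, and the control libraries varied more among themselves (11.2%) than the FN1 3′-UTR libraries (1.84%). Its log2FC was 0.46 (SE 0.077, 95% interval 0.27 to 0.64, limma adjusted p = 0.0160). It no longer passed without FN1 3′-UTR replicate 1 (adjusted p = 0.0542), FN1 3′-UTR replicate 2 (0.0554) or control replicate 2 (0.0664). *TWIST2*, its close relative on chromosome 2 from 238848032 to 238910543, had 2 reads over the FN1 3′-UTR libraries and 0 over the control libraries, where a count of 0 allows up to 3.69 reads (exact Poisson 95%). No fold is given for *TWIST2*, since both groups were under the floor of 3 reads.

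*TCF3*, located on chromosome 19 (1609290 to 1652605, reverse strand), encodes the E proteins E12 and E47, bHLH partners of TWIST1 and themselves repressors of *CDH1*. Its level was 59.5, 56.6 and 58.1 RPKM in HGC27-FN1 3′-UTR cells and 57.9, 59.3 and 62.5 RPKM in control cells. The groups overlapped, with a log2FC of -0.05 (SE 0.038, limma adjusted p = 0.489) and an interval of the fold from 0.909 to 1.03. With 24626 and 33057 reads in the groups, counting error was only 1.13% and 0.98% a library.

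*ZEB1*, on the forward strand of chromosome 10 from 31318495 to 31529814, and *ZEB2*, on chromosome 2 (144384081 to 144524583, reverse strand), encode repressors with zinc fingers at both ends and a homeodomain. *ZEB1* measured 15.1, 15.5 and 14.2 RPKM in HGC27-FN1 3′-UTR cells and 15.3, 14.6 and 14.4 RPKM in control cells. *ZEB2* measured 2.44, 2.56 and 2.53 RPKM against 2.61, 2.55 and 2.495 RPKM. For both genes the groups overlapped. The log2FC of *ZEB1* was 0.02 (SE 0.045, limma adjusted p = 0.863), with a fold interval of 0.938 to 1.09. That of *ZEB2* was -0.02 (SE 0.053, limma adjusted p = 0.809), with a fold interval of 0.900 to 1.07. The ratio of *ZEB1* to *ZEB2* ranged from 5.62 to 6.20 and from 5.72 to 5.86, with an exact permutation p of 0.4 over 3 against 3 libraries.

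The *ZEB* genes are the textbook targets of the miR-200 family, and 4 of the matching sites are shown to let them be compared. The mature miRNA has its seed, bases 2 to 8, in capitals, and each 3′-UTR window of 27 bases has the 7 bases complementary to that seed in capitals (RefSeq for the miRNA, build GRCh38.p14; GENCODE release 29 on GRCh38 for the 3′-UTRs, the protein-coding transcript with the longest coding sequence for each gene).
hsa-miR-200c-3p: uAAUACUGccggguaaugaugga
ZEB1 site 1, chr10:31527623-31527649, forward strand: tttatcttatCAGTATTatcactctta
ZEB1 site 4, chr10:31528497-31528523, forward strand: ttttacctatCAGTATTattttatttc
ZEB2 site 1, chr2:144389043-144389069, reverse strand: taccatacatCAGTATTtttattatta
ZEB2 site 2, chr2:144388980-144389006, reverse strand: tacaatgcatCAGTATTatgattcctc
The *ZEB1* 3′-UTR of 2549 bases held 6 such matches and the *ZEB2* 3′-UTR of 5370 bases held 5. Among 3′-UTRs within 20% of these lengths, 27.7% and 45.8% held at least 1 match. *SNAI2* held 1 and the other 7 genes none. The level of miR-200c was not measured in these libraries.

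*PRRX1*, the paired-related homeobox gene on the forward strand of chromosome 1 from 170662728 to 170739419, measured 13.5, 15.3 and 13.8 RPKM in HGC27-FN1 3′-UTR cells (1817, 3089 and 3320 reads) and 11.2, 11.8 and 11.4 RPKM in control cells (2070, 2990 and 3493 reads). The groups did not overlap, the nearest libraries being 13.5 and 11.8 RPKM. The log2FC was 0.30 (SE 0.055, 95% interval 0.17 to 0.44, limma adjusted p = 0.0200). It no longer passed without control replicate 1 (0.0595), 2 (0.0647) or 3 (0.0594), nor with no trend in the prior variance (adjusted p = 0.0506). *PRRX2*, its relative, was the more abundant per length, with 35.5 to 36.3 RPKM against 30.1 to 36.6 RPKM, and did not pass the test (log2FC 0.11, limma adjusted p = 0.334).

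**Figure D3:**
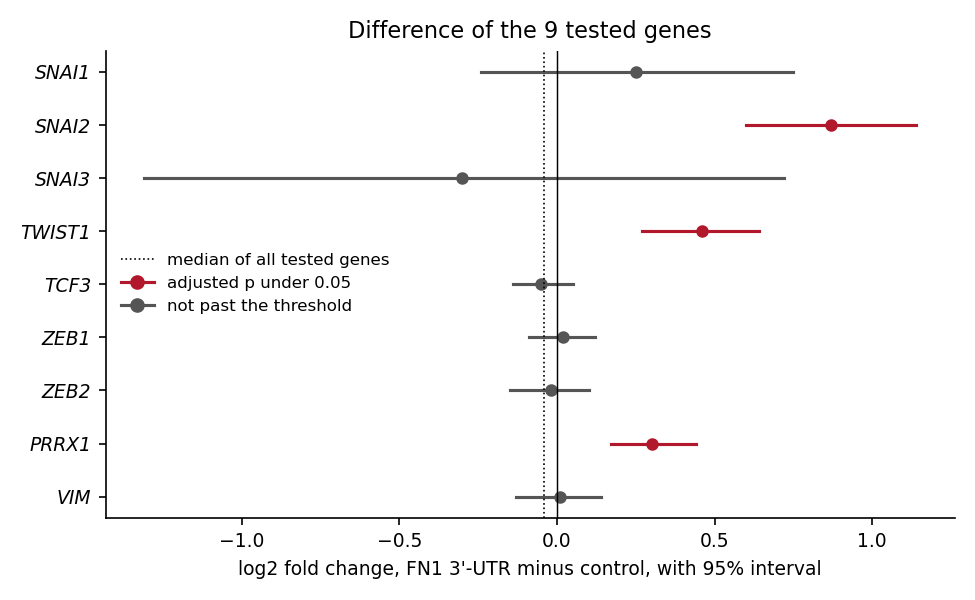
Log2 fold change of the 9 tested genes (points) with 95% intervals (lines), FN1 3′-UTR minus control, with the median of all tested genes (-0.04) as a dotted line. *SNAI2* at 0.87, *TWIST1* at 0.46 and *PRRX1* at 0.30 are in red as past an adjusted p of 0.05, and the widest interval is that of *SNAI3*.

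**Figure D4:**
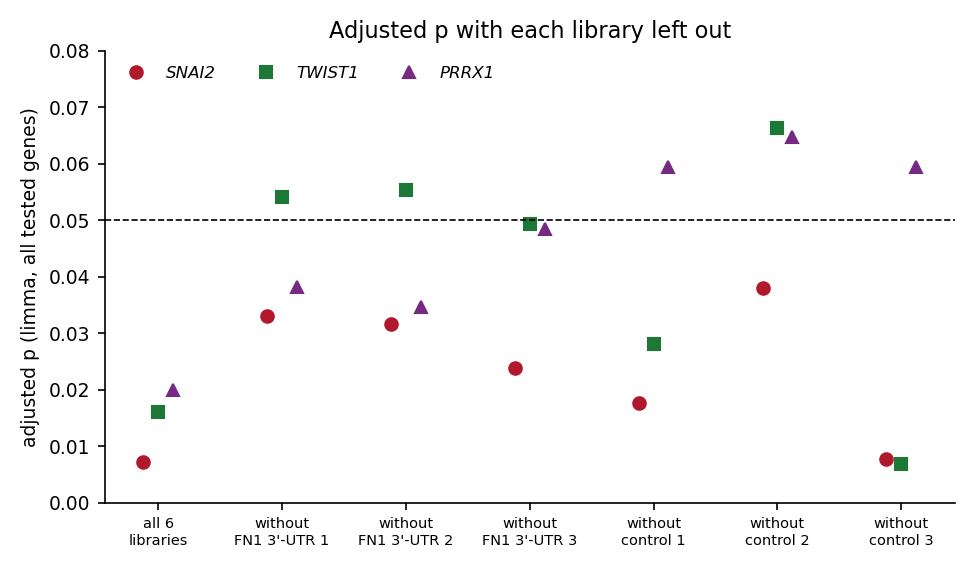
Adjusted p from limma for *SNAI2*, *TWIST1* and *PRRX1* with all 6 libraries and with each library left out, with a dashed line at 0.05. *SNAI2* stays below the line throughout, at most at 0.0380, while *TWIST1* and *PRRX1* each cross it in 3 of the 6 fits.

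The study tied 4 miRNAs to the *FN1* 3′-UTR, with let-7i-5p at the centre of its model. They are shown with the matches found in the EMT genes that the results turn on, because *PRRX1* alone among the 3 genes that rose holds any match.
hsa-let-7i-5p: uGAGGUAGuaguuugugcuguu
PRRX1 let-7i-5p match, chr1:170737799-170737825, forward strand: taatacttacCTACCTCacaggggtgt
hsa-miR-629-5p: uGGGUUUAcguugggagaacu
PRRX1 miR-629-5p match, chr1:170738799-170738825, forward strand: cctgaacccaTAAACCCaaatgatagg
hsa-miR-423-5p: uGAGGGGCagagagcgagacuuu
hsa-miR-296-3p: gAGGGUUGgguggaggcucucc
The 4 seeds differ from each other. Within a *PRRX1* 3′-UTR of 3233 bases, 1 match to let-7i-5p and 1 to miR-629-5p were found, and 15.8% and 13.7% of 3′-UTRs within 20% of that length held such a match. *SNAI3* held 1 let-7i-5p match, *ZEB2* and *TCF3* held 1 miR-423-5p match each, and miR-296-3p had none among the 10 genes. At the length of *PRRX1*, 21.6% and 14.9% of 3′-UTRs held a match to miR-423-5p and miR-296-3p. No match was found in *SNAI2* or *TWIST1* for these 4 seeds. Their 3′-UTRs are shorter, at 1203 and 706 bases. Per seed, 5.06% to 14.1% and 2.18% to 11.1% of 3′-UTRs within 20% of those lengths held a match. A match is a run of complementary letters and shows neither binding nor an effect.

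*VIM*, on the forward strand of chromosome 10 from 17228259 to 17237593, had the highest RPKM of the 10 genes. Its level was 315, 289 and 308 RPKM in HGC27-FN1 3′-UTR cells and 286, 299 and 324 RPKM in control cells, above 99.5% and 99.6% of the genes with reads. The groups overlapped. Its log2FC was 0.01 (SE 0.057, 95% interval -0.13 to 0.14, limma adjusted p = 0.958), with a fold interval of 0.913 to 1.10. With 109422 and 142428 reads in the groups, counting error of a library was 0.54% and 0.47%, so the spread of 4.44% and 6.45% was almost wholly between libraries.

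A pair of transcripts on the opposite strand overlaps *VIM*. *VIM-AS1* shares 641 of its 1992 exon bases with *VIM* exons and measured 218 to 251 RPKM against 213 to 259 RPKM, with a log2FC of 0.01 (limma adjusted p = 0.971). *RP11-124N14.3* shares 619 of its 706 bases and measured 1020 to 1103 RPKM against 1036 to 1131 RPKM, above *VIM* itself per length. The libraries were strand-specific, but whether the counting used strand is not given in the sources used here. Reads of *VIM* and of these partners therefore cannot be told apart, and the absolute level of *VIM* is uncertain. Elsewhere, partners on the opposite strand had far fewer reads, counted over the whole partner and not the shared bases. *ZEB1-AS1* had 282 and 379 reads in the groups, *ZEB2-AS1* 59 and 66, and *AC003986.6*, which shares 141 bases with *TWIST1*, 195 and 181. *SNAI3-AS1* had 21 and 52, which is more than the 9 and 18 of *SNAI3* itself.

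By mean RPKM the order in HGC27-FN1 3′-UTR cells was *VIM*, *TWIST1*, *TCF3*, *ZEB1*, *PRRX1*, *SNAI2*, *SNAI1*, *ZEB2*, *SNAI3* and *TWIST2*. The ranges of the libraries overlapped between the neighbours *ZEB1* and *PRRX1*, *SNAI2* and *SNAI1*, and *SNAI3* and *TWIST2*. In control cells the order was *VIM*, *TCF3*, *TWIST1*, *ZEB1*, *PRRX1*, *SNAI1*, *ZEB2*, *SNAI2*, *SNAI3* and *TWIST2*, with overlap between *TCF3* and *TWIST1* and among *SNAI1*, *ZEB2* and *SNAI2*. RPKM divides by the merged length of all annotated exons, which is 23707 bases for *ZEB2* against 9583 for its longest-coding transcript. With that length in place of the merged one, a choice made after the data were seen, *ZEB2* stood at an RPKM of 6.21 and 6.32 in the groups, above *SNAI1* (3.98 and 3.37) and *SNAI2* (4.28 and 2.31). The reads were still those of all merged exons, so a gene with many exon bases outside that transcript can be overstated. *SNAI2*, whose transcript is longer than its merged exons, can be understated. *TCF3* then ranked above *TWIST1* and *PRRX1* above *ZEB1* in both groups, although the ranges of *PRRX1* and *ZEB1* overlapped in control cells. The middle of the order thus rests on which exons are counted as length.

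Over the 6 libraries, other genes followed the 3 EMT genes that rose very closely. Among 14644 other genes with a mean of at least 1 RPKM, the most similar to *SNAI2* by Pearson's r of log2(RPKM + 0.1) were *HHIPL2*, *FEN1* and *KIAA0100* (r = 0.998 each). For *TWIST1* they were *NBL1* (0.998), *ZFAND5* and *TXNDC9* (0.997 each), and for *PRRX1* they were *IARS2*, *PUS7L* (0.992 each) and *RABGGTB* (0.991). As many as 596, 401 and 132 genes exceeded 0.95 for these 3, whose 6 points share the difference between the groups. Where the groups overlapped, 9 genes exceeded 0.95 for *ZEB1*, 18 for *ZEB2*, 64 for *SNAI1* and 71 each for *TCF3* and *VIM*. How many of 14644 unrelated genes would exceed 0.95 over only 6 libraries was not tested, so the genes named are a description. The closest to *ZEB1* was *IPO7* (0.983). For *SNAI1* the closest were *INTS7* and *SAR1B* (0.990 each), for *TCF3* *NDUFA6* (0.994), for *ZEB2* *LINC01176* (0.987), and for *VIM* *SMIM13* and *PNMA1* (0.997 each), with its own antisense transcript *VIM-AS1* next (0.995). Whether reads of *VIM* and *VIM-AS1* were kept apart is not known, and whether shared reads had a part in that r was not tested.

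The proteins that pair with TWIST1 or hold its partners away are the other E proteins and the ID inhibitors, which bind E proteins without binding DNA. Of 6 such genes tested 3 rose and 0 fell, against 5.62% and 7.36% of all tested genes. Their median log2FC was 0.27 against -0.04 for all tested genes. *ID1* rose from 15.9, 17.3 and 20.5 RPKM in control cells to 27.2, 23.6 and 25.5 RPKM (log2FC 0.51, limma adjusted p = 0.0239). *ID2* rose by 0.38 (limma adjusted p = 0.0366) and *TCF12*, an E protein, by 0.18 (limma adjusted p = 0.0224). *ID3* and *TCF4*, with log2FCs of 0.32 and 0.23, also had every FN1 3′-UTR library above every control library, as did 14.3% of all tested genes. Both missed the threshold (limma adjusted p = 0.0509 and 0.0861). At an unadjusted p under 0.05, 5 of the 6 were higher and 0 lower, and voom called those 5 at its adjusted p. The calls of *TCF12*, *ID1* and *ID2* held in 0, 2 and 1 of the 6 fits with a library left out, with adjusted p-values up to 0.0856, 0.0874 and 0.104.

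Of 14 tested genes for other EMT transcription factors 6 rose and 0 fell, against 5.62% and 7.36% of all tested genes. Their median log2FC was 0.25. *FOXQ1*, a forkhead factor, went from 0.0582, 0 and 0.0351 RPKM to 0.238, 0.372 and 0.564 RPKM (68 reads against 6, log2FC 1.88, limma adjusted p = 0.0171). All its control libraries lay under the filter of 0.1 RPKM, so it was tested only because the other group was high, and its call is not evidence on the list. Without it 5 of 13 rose. *FOSL1*, a subunit of the AP-1 factor, rose by 1.01 (limma adjusted p = 0.0379) from 36 reads to 71. The better expressed *RUNX2* rose by 0.69 (limma adjusted p = 0.00402), from 1.44, 1.53 and 1.62 RPKM to 2.42, 2.63 and 2.51 RPKM. *SOX9*, *SOX4* and *HMGA2* rose by 0.72, 0.53 and 0.55. At an unadjusted p under 0.05, 7 were higher and 2 lower, and voom called 7 higher and 1 lower. Of the 6 calls, those of *RUNX2* and *SOX4* held whichever library was left out.

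Corepressors carry out the silencing that SNAI and ZEB proteins direct. Of 20 tested 1 rose and 3 fell, with a median log2FC of -0.02, against 5.62% higher and 7.36% lower of all tested genes. Voom called 3 higher and 3 lower, and at an unadjusted p under 0.05 limma gave 3 and 4. *EZH2*, the methyltransferase of Polycomb repressive complex PRC2, fell by 0.32 on the log2 scale (limma adjusted p = 0.00573), from 46.3, 44.9 and 42.4 RPKM to 35.2, 35.6 and 36.0 RPKM. *EHMT2*, which encodes the histone methyltransferase G9a, fell by 0.26 (limma adjusted p = 0.00544) and *RCOR1*, which encodes CoREST, by 0.20 (limma adjusted p = 0.0160). *WDR77*, a cofactor of the arginine methyltransferase PRMT5, rose by 0.30 (limma adjusted p = 0.0192). *CTBP1* and *CTBP2*, which encode corepressors that bind ZEB proteins, had log2FCs of -0.03 and -0.05 (adjusted p = 0.728 and 0.414), and *HDAC1*, *KDM1A* and *SIN3A* lay between -0.05 and -0.02 without passing. *AJUBA*, whose product binds SNAI proteins, had every FN1 3′-UTR library above every control library, as did 14.3% of all tested genes. Its log2FC of 0.34 missed the threshold (limma adjusted p = 0.0981). The calls of *EZH2* and *EHMT2* held whichever library was left out, while those of *RCOR1* and *WDR77* held in 3 and 2 of the 6 fits.

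SNAIL, SLUG, TWIST1 and ZEB proteins are short-lived, and RNA does not report their stability. Of 20 tested genes for kinases, ubiquitin ligases and deubiquitinases that act on them, 1 rose and 3 fell, with a median of -0.08. Of all tested genes 5.62% were higher and 7.36% lower. At an unadjusted p under 0.05 limma gave 1 higher and 5 lower, and voom called 1 and 4. For 6 of the 20 every FN1 3′-UTR library lay below every control library and for 2 above, against 21.7% and 14.3% of all tested genes. *USP37*, a deubiquitinase, fell by 0.36 (limma adjusted p = 0.0236). *FBXO45* and *BTRC*, which encode substrate receptors of ubiquitin ligases, fell by 0.30 and 0.23 (limma adjusted p = 0.0108 and 0.0203). *LATS2*, a kinase of the Hippo pathway, rose by 0.27 (limma adjusted p = 0.0176). *GSK3B*, the kinase that marks SNAIL for degradation, had a log2FC of -0.01 (SE 0.041, limma adjusted p = 0.951). The call of *FBXO45* was lost without control replicate 2 (adjusted p = 0.053) and with the replicate block (0.0541), and those of *USP37*, *LATS2* and *BTRC* held in 2, 2 and 1 of the 6 fits with a library left out.

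Epithelial genes are the classical targets of repression by these factors. Of 21 tested 7 rose and 1 fell, against 5.62% and 7.36% of all tested genes, with a median log2FC of 0.22. At an unadjusted p under 0.05 limma gave 11 higher and 3 lower, and voom called 10 and 2. Every FN1 3′-UTR library lay above every control library for 11 and below for 4, against 14.3% and 21.7% of all tested genes. These counts include 4 genes, named below, that were tested only because 1 group was high. *CDH1* rose from 0.116, 0.105 and 0.157 RPKM to 0.821, 0.683 and 0.604 RPKM (72 reads to 295, log2FC 1.83, SE 0.18, limma adjusted p = 0.00316), with no overlap between the groups. The keratin genes *KRT18*, *KRT19* and *KRT8* rose by 4.11, 3.34 and 2.44, *EPCAM*, an epithelial adhesion molecule, by 2.59, and *ST14* and *MUC1* by 1.91 and 0.60. *KRT19* and *ST14*, as well as *ESRP1* and *ESRP2*, which did not pass, reached 0.1 RPKM in no control library and were tested only because the FN1 3′-UTR group was high. Without these 4 genes, 5 of 17 rose and 1 fell, with a median log2FC of 0.19. The call of *MUC1* held in 1 of the 6 fits with a library left out, and the other 7 held in all of them. Reads of these keratins can be shared with processed pseudogenes, and how the counting split them is not given in the sources used here. *DSP*, which encodes desmoplakin of the desmosomes, fell by 0.36 (limma adjusted p = 0.00758), from 14.6, 14.0 and 13.6 RPKM to 10.8, 10.5 and 11.5 RPKM. By protein, the study reported E-cadherin, ZO1, β-catenin and CLDN1 as reduced in FN1 3′-UTR cells, and N-cadherin, Slug and Snail as raised. The values here are RNA, and that of *CDH1* moved opposite to the reported E-cadherin protein. Of the other junction genes in question, *TJP1*, which encodes ZO1, had a log2FC of -0.09 (limma adjusted p = 0.213). *CTNNB1*, which encodes β-catenin, had a log2FC of 0.06 (limma adjusted p = 0.492). *CLDN1* was too low to test, with 20 and 19 reads over the groups. The ratio of *VIM* to *CDH1* was 384, 424 and 510 in HGC27-FN1 3′-UTR cells and 2460, 2850 and 2060 in control cells, a log2 difference of -2.48 (exact permutation p = 0.1, the smallest possible, and 0.15 adjusted over 3 ratios).

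SNAI and ZEB proteins bind the E-box letters CAGGTG, which read CACCTG on the other strand. Both were searched in RefSeq promoters (250 bases before to 50 after a start site, build GRCh38.p14), of which 20.6% held at least 1. Promoters were found for 3 of the 8 epithelial genes called, and those of *DSP* and *MUC1* held the motif, shown here in capitals because these genes moved in opposite directions.
DSP, chr6:7541483-7541508, forward strand: gcggcgggcgCAGGTGgggaggggcg
DSP, chr6:7541576-7541601, forward strand: agaaaccggcCAGGTGtggcctaggc
MUC1, chr1:155192982-155193007, reverse strand: ggggttttgtCACCTGtcacctgctc
MUC1, chr1:155192975-155193000, reverse strand: tgtcacctgtCACCTGctccggctgt
The windows of *MUC1* overlap and its motifs lie 7 bases apart. *KRT8* held none. Of the EMT genes 6 had a promoter in the table, and *ZEB1* alone held the motif, in 2 of its 7 start sites. A motif is a description of the letters and not a bound site.

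Mesenchymal genes linked to EMT had the highest median of the lists. Of 22 tested 14 rose and 1 fell, against 5.62% and 7.36% of all tested genes, with a median log2FC of 0.42. At an unadjusted p under 0.05 limma gave 16 higher and 2 lower, and voom called 16 and 2. *TNC*, the matrix protein tenascin C, rose by 2.12 (limma adjusted p = 0.00126), from 0.121, 0.165 and 0.196 RPKM to 1.08, 0.960 and 1.04 RPKM. *TAGLN* and *ACTA2*, genes of the contractile cytoskeleton, rose by 1.48 and 1.23, and the collagen gene *COL1A2* by 1.32. The more abundant collagens *COL3A1* and *COL1A1* rose by 0.44 and 0.55 and *SPARC*, which binds collagen, by 0.86. *ITGA5*, the alpha subunit of the main fibronectin receptor, fell by 0.30 (limma adjusted p = 0.0253). *CDH2*, which encodes N-cadherin, had 19 and 18 reads over the groups and was not tested. With a library left out, *COL1A1* lost its call without control replicate 2 (adjusted p = 0.0532), *LOX* held in 4 of the 6 fits and *ITGA5* in 2, and 11 calls held in all. Summed fibroblast markers, most of whose level is collagen genes of this list, and summed epithelial markers were both higher in the same libraries, as given above.

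Of 10 tested genes for other intermediate filament proteins outside the keratins 0 rose and 1 fell, against 5.62% and 7.36% of all tested genes. Their log2FCs went both ways, from -0.69 for *NEFL* to 0.69 for *BFSP1*, which missed the threshold (limma adjusted p = 0.0995), with a median of -0.02. At an unadjusted p under 0.05, 1 was higher and 3 lower, and voom called 2 higher and 2 lower. *NES* and *SYNM*, whose products assemble with vimentin, had log2FCs of 0.04 and 0.06 (adjusted p = 0.407 and 0.259). *NEFL*, a neurofilament gene, fell by 0.69 (limma adjusted p = 0.00132), from 25.7, 24.7 and 24.4 RPKM to 15.7, 16.3 and 14.4 RPKM, and its call held whichever library was left out. None of the 3 antisense genes tested (*VIM-AS1*, *ZEB1-AS1*, *ZEB2-AS1*) passed the limma test, at an unadjusted p under 0.05 or by voom.

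**Figure D5:**
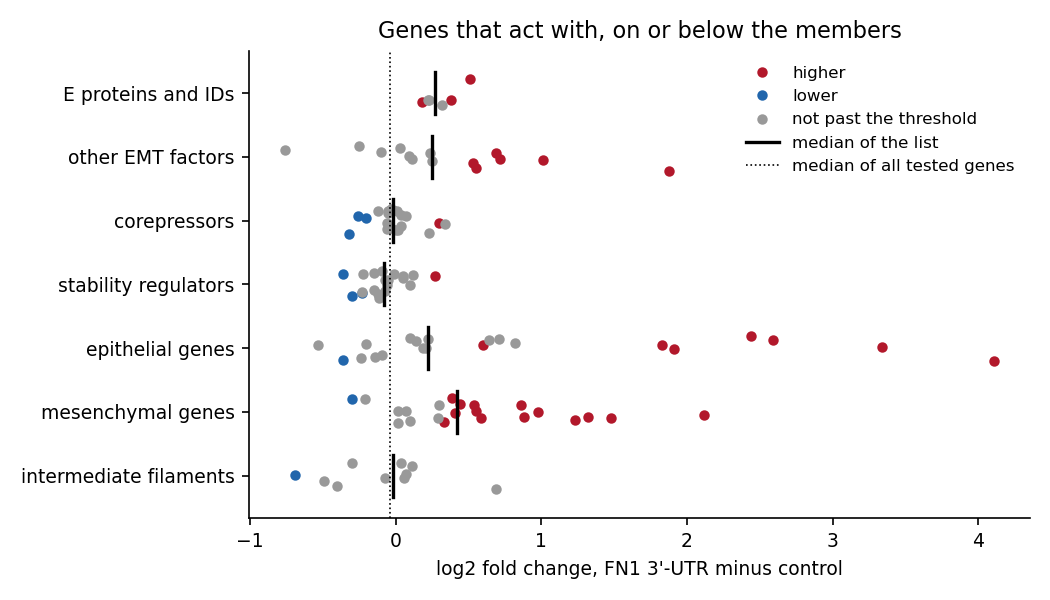
Log2 fold change, FN1 3′-UTR minus control, of the tested genes of 7 lists, 1 point for each gene. Red points rose and blue points fell at an adjusted p under 0.05, black bars are list medians and the dotted line is the median of all tested genes (-0.04). The medians run from -0.08 for stability regulators to 0.42 for mesenchymal genes, and the largest changes are those of epithelial genes, up to 4.11.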

How the data were processed

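RNA-seq of 6 HGC27 libraries, 3 for each group as the labels name them, was analysed. Per the labels, the authors used Trimmomatic 0.36, STAR 2.5.3a and featureCounts (Subread 1.5.1) on GRCh38, starting from strand-specific libraries. They deposited gene RPKM, 1 table a library. The strand setting and annotation release are not given in the sources used here. RPKM times the merged exon length, divided by the value of 1 read, gave back the reads (100% whole within 0.05). These served for depth, counting error and 1 alternative.

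The 23299 genes that reached 0.1 RPKM in at least 3 libraries were fitted on log2(RPKM + 0.1) with limma 3.58.1 in R 4.3.3, with group as the only term, empirical Bayes moderation with a trend and Benjamini-Hochberg adjustment over all tested genes, two-sided. The fit was tested on simulated data. Library ratios were compared by exact permutation.

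The members, lists and rules were chosen with earlier results of these data known. Named were all members, genes of a list past an adjusted p of 0.05, *FN1*, genes of EMT proteins the study assayed, and the 3 genes most like a member. Others were named after their values were seen: *PRRX2*, *ID3*, *TCF4*, *CTBP1*, *CTBP2*, *HDAC1*, *KDM1A*, *SIN3A*, *GSK3B*, *NES*, *SYNM*, *AJUBA*, *BFSP1*, *ESRP1*, *ESRP2*, *DCN* and *PDGFRA*. In the lists, 1 gene is counted but not reported here by name. Alternatives were the pseudocount, filter, scaling, voom, prior variance, replicate block and each library left out. Tables were prepared with pandas 2.3.3, tests of ratios with numpy 2.4.6 and Poisson intervals with scipy 1.17.1.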

Additional observations from a re-analysis of the deposited data

How the results depend on the processing

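The 3 EMT genes that rose were the same 3 under pseudocounts of 0.01 and 1, no filter, a mean of at least 1 RPKM, median-ratio scaling and voom, and 0 fell or passed the criteria of the study under any setting. Leaving out a library left 1 to 3 of them higher, with 1, *SNAI2*, without control replicate 2. Pathway genes higher then numbered 19 to 29 and lower 4 to 8, against 32 and 9 with all libraries, with 23 of the 41 calls kept without control replicate 2. Over all genes 472 to 901 were higher and 431 to 1010 lower, against 1310 and 1715, with fewest again without control replicate 2. Voom called 2042 genes higher and 3066 lower, and 14 pathway genes lower. With no trend 954 and 1301 genes were called. A pseudocount of 0.1 moved the log2 difference of the *VIM* to *CDH1* ratio to -1.82. With the length of 1 transcript, a choice made after the data were seen, *ZEB2* moved from rank 8 to 6 and from rank 7 to 6.

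Same-numbered libraries did not deviate together (correlations of 0.034, -0.0121 and -0.0231 over 14652 genes, with 2 of 6 libraries most like their own number), so the numbers are taken not to pair them. With the replicate block, *SNAI2* (adjusted p = 0.0428), *TWIST1* (0.0443) and *PRRX1* (0.0408) were still called, 564 genes were higher and 598 lower, and 4 pathway genes were lower, with 26 of the 41 pathway calls kept. *FN1* was called neither with the block (adjusted p = 0.0852) nor with no filter (0.0708). Depth limits *SNAI3* and *TWIST2*.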
